A study of Homo sapiens with 9 samples.

Results

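The first megabase of human chromosome 1 carries a stretch of DNA copied from the mitochondrial genome, with 7 pseudogenes in the order MTND1P23, MTND2P28, MTCO1P12, MTCO2P12, MTATP8P1, MTATP6P1 and MTCO3P12. The sites described here were chosen by position alone in 3 deposited lists of N6-methyladenosine (m6A) sites. They are the plus-strand sites between chr1:564400-570310 of build hg19, a window of 5911 nt. The 3 lists together hold 16 such entries at 14 distinct positions, out of 4934 entries at 4429 positions. The members are therefore read off the same lists that are compared, so their number per list and their scores are descriptions.

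The cells were HepG2, an established line from a human hepatocellular carcinoma. They stably expressed, after lentiviral delivery and puromycin selection, a non-specific control shRNA (shCtrl, "control" here) or either of 2 shRNAs against SETD2 (shSETD2#1 and shSETD2#2, hairpins 1 and 2 here). Labels give 3 replicates per shRNA, 9 samples in all, but a single pooled list per shRNA, so no value here has a replicate error and no test between conditions was made. The series and its lists name the assay as miCLIP, a method that crosslinks an m6A antibody to RNA. The sample titles name it m6A-seq, and the protocol in the labels gives pulldown with an m6A antibody and mentions no crosslinking step. The sites are called m6A sites as the lists name them. The lists held 3755 sites for control, 482 for hairpin 1 and 697 for hairpin 2, with scores summing to 256360, 23420 and 51597. The score is a whole number that the authors gave each site, at least 3 in every list. It is read here as the number of sequencing reads over the base, an inference from the order of the site names. Depth per library was not analysed here. The 95% intervals are exact binomial (Clopper-Pearson) ones and reflect counting error alone. No molecular identifiers separate duplicate reads, so intervals from read counts treat each read as independent and may be too narrow. The reduction of SETD2 itself was not analysed here, and fewer cells of a kind or less RNA per cell cannot be told apart in such bulk samples.

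Nuclear copies of mitochondrial DNA, called NUMTs, arise when fragments of the organelle's genome become inserted into chromosomes. Their gene fragments are annotated as pseudogenes. Where such a copy is recent, short reads from mitochondrial transcripts can match both places. The parent genes of this copy encode subunits of respiratory complex I (MT-ND1 and MT-ND2), of cytochrome c oxidase (MT-CO1, MT-CO2 and MT-CO3) and of ATP synthase (MT-ATP8 and MT-ATP6). Their transcripts are among the most abundant polyadenylated RNAs of a liver cell. m6A is placed on nuclear transcripts by a METTL3 and METTL14 complex, mostly at the motif called DRACH. SETD2 is the enzyme that places the H3K36me3 mark on the chromatin of genes being transcribed.

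In RefSeq (GRCh38.p14) all 7 members are annotated as pseudogenes and follow each other on chromosome 1 in the order given. MTATP6P1 overlaps MTATP8P1, as the parent genes do, and MTCO3P12 begins where MTATP6P1 ends. RefSeq names 252 pseudogenes with these 7 stems across the genome, so the copy is 1 of many. MTCO1P12 is 1 of 58 named for the MT-CO1 gene, over 20 chromosomes, MTND2P28 is 1 of 41 for MT-ND2 and MTND1P23 is 1 of 37 for MT-ND1. MTATP8P1 is 1 of only 4. Since the gene table is of another build than the lists, single sites are given by position and not assigned to a pseudogene.

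The only stretch of a member in the sequence tables used here is the beginning of MTND1P23, which lies in the promoter window of a gene on the opposite strand, LOC101928626. It is shown to let the text of the copy be seen, on the plus strand of GRCh38.p14 at chr1:628960-629259, with the 198 bases annotated as MTND1P23 in capitals.
MTND1P23 start: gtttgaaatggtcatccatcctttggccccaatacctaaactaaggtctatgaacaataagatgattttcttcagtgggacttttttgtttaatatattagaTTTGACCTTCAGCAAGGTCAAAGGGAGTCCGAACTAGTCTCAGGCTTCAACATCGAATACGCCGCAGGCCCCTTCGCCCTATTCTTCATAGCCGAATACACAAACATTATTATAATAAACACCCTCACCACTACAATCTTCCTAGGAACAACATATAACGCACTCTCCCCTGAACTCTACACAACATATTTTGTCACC
These 198 bases have 63 cytosines, the base whose change to T names the sites, and a GC content of 44.4%. The motif DRACH (A, G or T, then A or G, then AC, then A, C or T) was searched on the plus strand and occurred 6 times. Of 35116 promoter pieces of the same length in the table, 92.6% held the motif at least once, with a median of 3, and 12.0% held it as often as the MTND1P23 piece or more. The motif count says nothing on whether a listed site lies there, because the lists use hg19.

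RefSeq places 1 further gene among the pseudogenes, MIR12136, between MTCO1P12 and MTCO2P12 on the minus strand, with its hairpin of 71 nt at chr1:632615-632685 of GRCh38.p14. The mature sequence, at chr1:632668-632685, is shown with its seed, bases 2 to 8, in capitals.
hsa-miR-12136: gAAAAAGUcauggaggcc
All listed sites of the copy are on the plus strand, the strand of the pseudogenes, and 0 sites of the window were on the minus strand in any list.

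The copy held as many listed sites with hairpin 1 as in control, while the list as a whole was far shorter. Control had 6 sites, hairpin 1 also 6 and hairpin 2 had 4. This is 0.160% of the control list (interval 0.0587 to 0.347), 1.24% of the hairpin 1 list (0.458 to 2.69) and 0.574% of the hairpin 2 list (0.157 to 1.46). These intervals treat sites of a list as independent and do not compare the conditions. Of the sites on chromosome 1, the copy held 6 of 315 in control, 6 of 35 with hairpin 1 and 4 of 60 with hairpin 2. A kept number was not particular to the copy. On the mitochondrial chromosome (chrM), control listed 25 positions, hairpin 1 listed 24 and hairpin 2 listed 26. For the chrM stretch of the same genes these numbers were 6, 9 and 5. By summed score the copy held 0.443%, 0.470% and 2.07% of the lists. The high value of hairpin 2 rested on a single site, and without the best covered member of each list the shares were 0.284%, 0.304% and 0.290%.

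The copy was among the nuclear windows with most sites in each list. Windows of the same length were laid from each nuclear site along its strand. In the hairpin 1 list 0 other windows reached its 6 sites, the highest elsewhere being 5. In the control list 2 separate windows did, the fullest with 12 sites, and in the hairpin 2 list 2 separate windows held 4. The outermost members were at 564545 and 570153. No list had a chromosome 1 site before the window, and the first after it were at 789452 in control (score 128), at 3404650 on the minus strand with hairpin 1 (score 16) and at 789471 with hairpin 2 (score 380).

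In control, 5 of the 6 sites scored above the nuclear median of their list. From left to right, the score was 86 at 564545, 7 at 565265, 384 at 565684, 56 at 567088, 195 at 567926 and 408 at 570153. Their median was 140.5, against 14 for the other nuclear sites of that list. The site at 570153 was reached or passed by 53 of 3730 nuclear control sites (1.42%) and the one at 565684 by 58 (1.55%), whereas the site at 565265 was the 1 below that median.

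With hairpin 1 all 6 sites had low scores, in a list whose scores were low in general. Scores were 39 at 565165, 14 at 566234, 14 at 566502, 16 at 566969, 3 at 568523 and 24 at 570153. Their median was 15, against 10 for the other nuclear sites. The site at 565165 was reached or passed by 113 of 458 nuclear sites of that list (24.7%). The 568523 site sat at the lowest score the lists contain.

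With hairpin 2 a single site held most of the reads. Scores were 50 at 564560, 71 at 565684, 919 at 566994 and 26 at 567671, with a median of 60.5 against 14 for the other nuclear sites. The site at 566994 made up 86.2% of the members' summed score and was reached by only 7 of 671 nuclear sites (1.04%), itself included.

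**Figure D1:**
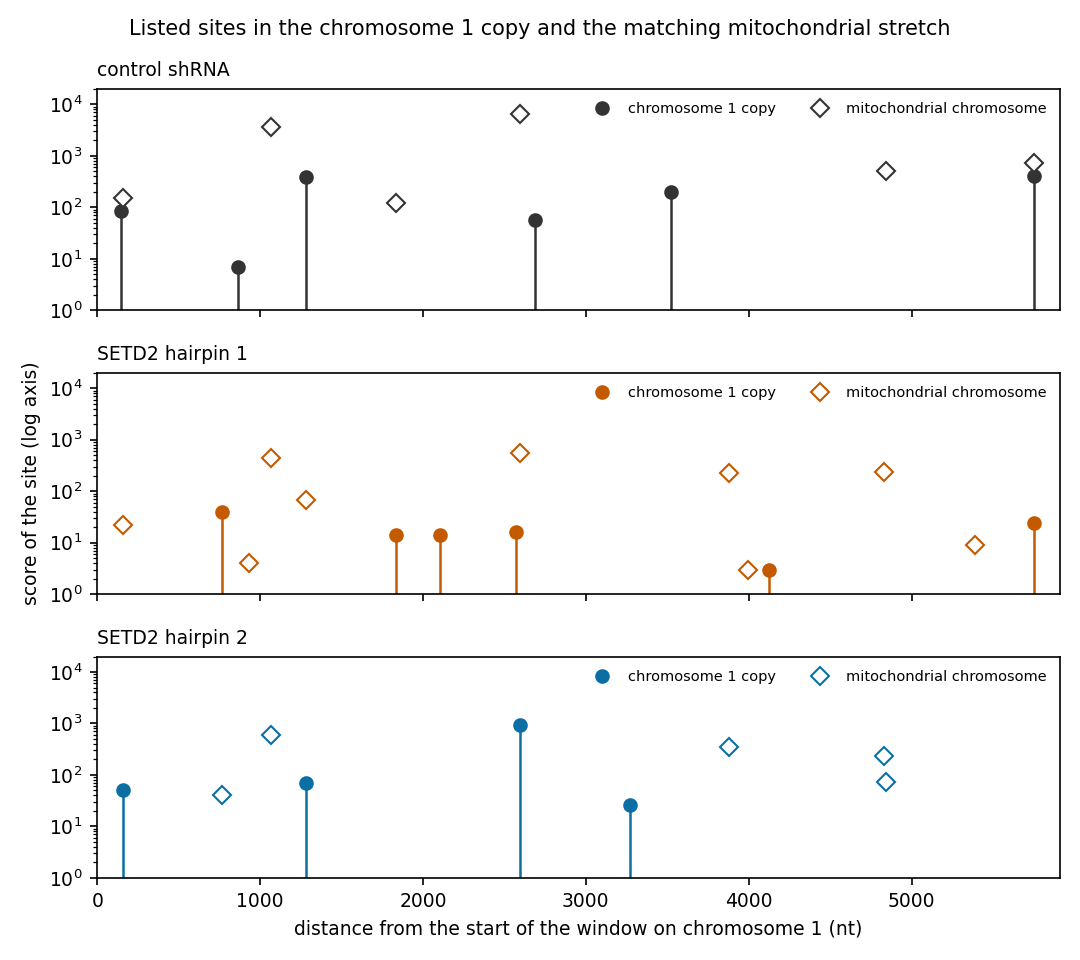
Score of each listed site (log axis) against its distance in nt from the start of the chromosome 1 window, in 1 panel per pooled list. Filled circles with stems are sites of the copy and open diamonds are mitochondrial sites moved by 560549 nt. The filled circle of hairpin 2 at 2594 nt (score 919) stands where control and hairpin 1 have an open diamond (6647 and 559).

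Positions were then set beside mitochondrial sites (chrM) of all 3 lists, at the approximate offset of 560550 between both chromosomes. Of the 14 member positions, 5 differed from a listed chrM position by exactly 560549 nt, and 1 more, 570153, by 560548 nt. The remaining 8 were between 16 and 612 nt from the nearest chrM site at that offset. From the other side, the matching chrM stretch (3910 to 9760) held 13 listed positions, 6 of which had a partner in the copy. The 7 others ran from 4785 to 9243 with scores from 3 to 3686.

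The 5 pairs with the constant difference are called matched bases here, from that difference alone. It was picked after seeing the lists, and no alignment of both sequences was made. At these 5 a list named one copy or the other and never both. There were 13 cases of a matched base in a list. In 6 the site was on chromosome 1, in 7 it was on chrM, and in 0 both were listed. The chromosome listed thus differed between lists.

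The base at chr1 566994 and chrM 6445 was the deepest. Control listed it on chrM with a score of 6647, hairpin 1 on chrM with 559 and hairpin 2 on chromosome 1 with 919. Hairpin 2 did not list it on chrM. The scores are not scaled for depth, and whether the same reads lie behind them was not tested.

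Compared with that base, the base at chr1 565684 and chrM 5135 differed in the chromosome listed only in control. It was on chromosome 1 in control with 384 and with hairpin 2 with 71, and on chrM with hairpin 1 with 66. It is 1 of the 2 member positions found in more than 1 list, the other being 570153.

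The base at chr1 564560 and chrM 4011 was on chrM in control with 155 and with hairpin 1 with 22, and on chromosome 1 with hairpin 2 with 50. The base at chr1 566234 and chrM 5685 was on chrM in control with 121, on chromosome 1 with hairpin 1 with 14, and in neither place with hairpin 2. The base at chr1 565165 and chrM 4616 was absent in control, on chromosome 1 with hairpin 1 with 39 and on chrM with hairpin 2 with 40. Each of the 5 bases was thus on chromosome 1 in at least 1 list and on chrM in at least 1 other. This follows from the way the pairs were chosen, together with the absence of a list naming both. How reads that match both copies were placed is not given in the sources used here, and its part in these switches was not tested.

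**Figure D2:**
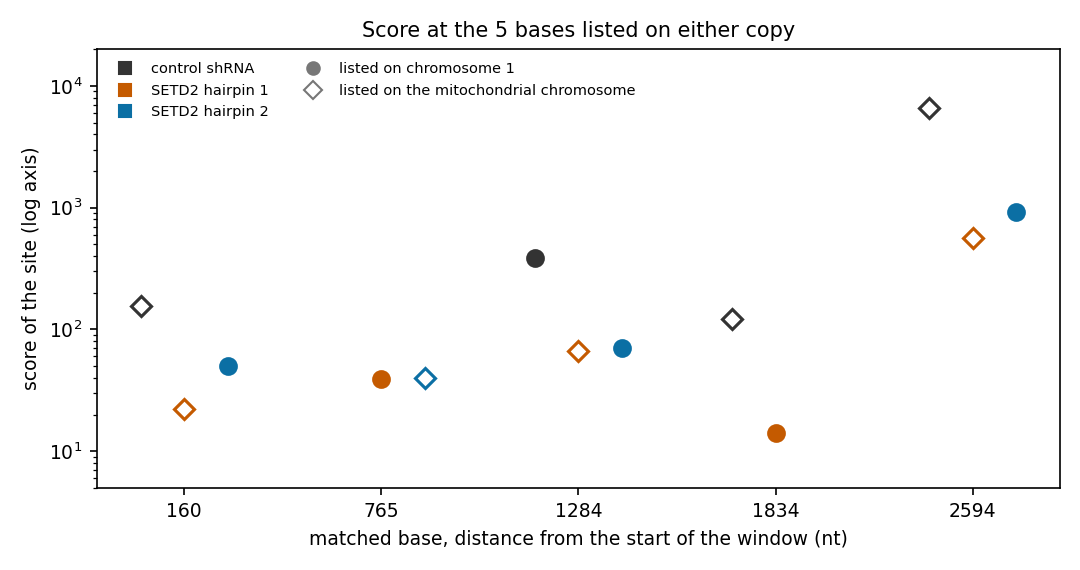
Score (log axis) at the 5 bases that differ by 560549 nt between the copy and chrM, labelled by distance from the window start. Colour gives the list, filled circles a site on chromosome 1 and open diamonds a site on chrM. Each base shows both symbols because pairs were chosen so, and never in the same colour.

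The site at 570153 was different. Control listed it with a score of 408 and listed chrM 9605, at 560548 nt, with 741. This was the only member with a chrM site within 10 nt of the offset in its own list. Hairpin 1 listed 570153 with 24 and no chrM site nearer than 361 nt, and hairpin 2 listed neither. The difference is 1 nt off the constant value, so this pair is not counted among the 5. Whether these are the same base was not tested, and counted with the 5 it would be the 1 case of both copies in a list.

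In 2 lists both copies had sites within 25 nt of each other. In control, chr1 564545 with 86 lay 15 nt, at the constant difference, from chrM 4011 with 155. With hairpin 1, chr1 566969 with 16 lay 25 nt from chrM 6445 with 559. Elsewhere, the nearest chrM site in the same list was 94 nt away or more, apart from 570153 in control.

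Control members listed again at the same base numbered 1 of 6 with hairpin 1 (570153) and 1 of 6 with hairpin 2 (565684). Over all control sites the share was 5.99% and 6.50%. Counting a site on the partner base of chrM as well gave 2 of 6 and 1 of 6. For the 6 control sites of the chrM stretch, the same base on chrM was found again at 3 with hairpin 1 and 2 with hairpin 2, and 4 with each hairpin when the chromosome 1 base was counted too. The members that were new in a hairpin list numbered 5 of 6 with hairpin 1 and 3 of 4 with hairpin 2, beside 53.3% and 65.0% of all sites of those lists. With the partner base counted, they numbered 4 of 6 and 1 of 4, the last being 567671. With 4 to 6 members per list, these shares are not read as a difference from the background.

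Where a member or its partner was listed in control and a hairpin, the hairpin score was several-fold lower. At 570153 it was 408 in control and 24 with hairpin 1, 17.0-fold lower (interval 11.3 to 26.8, counting error). At 565684 it was 384 in control and 71 with hairpin 2, 5.41-fold lower (4.19 to 7.07). All sites shared with control were 7.01-fold and 4.93-fold lower at the median, and the share at least 2-fold lower was 84.0% with hairpin 1 and 73.0% with hairpin 2. With the matched bases of both copies taken as the same, hairpin 1 was 7.05-fold lower at 564560 (4.49 to 11.6), 5.82-fold at 565684 (4.47 to 7.67), 8.64-fold at 566234 (4.96 to 16.3) and 11.9-fold at 566994 (10.9 to 13.0). Hairpin 2 was 3.10-fold lower at 564560 (2.24 to 4.35), 5.41-fold at 565684 and 7.23-fold at 566994 (6.75 to 7.76). These scores are not scaled for sequencing depth.

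Summed over all members, the control score of 1136 compared with 110 for hairpin 1 (10.3-fold lower) and 1066 for hairpin 2 (1.07-fold lower). The sums of the whole lists were 10.9-fold and 4.97-fold lower. Without the best covered member of each list, the members were 10.3-fold and 4.95-fold lower, so the near-equal sum of hairpin 2 rested on the score of 919 at 566994. In the chrM stretch, where that base is missing from the hairpin 2 list, the sums were 11850, 1561 and 1284, or 7.59-fold and 9.23-fold lower. Both places together were 7.77-fold and 5.53-fold lower. The copy held 8.75%, 6.58% and 45.4% of the score of both places in control, hairpin 1 and hairpin 2. Without 566994 it held 10.3% in hairpin 2. That value is not comparable with the shares of control and hairpin 1. Their totals keep the partner base chrM 6445, with 6647 in control and 559 with hairpin 1.

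Changed reads, those with T for C at the site, were counted by reconstruction from the order of the running numbers in the site names, as the whole number that keeps each list ordered by a binomial probability. This number was single-valued at all 16 entries. In control it was 3 of 86 reads at 564545, 1 of 7 at 565265, 9 of 384 at 565684, 1 of 56 at 567088, 22 of 195 at 567926 and 25 of 408 at 570153. With hairpin 1 it was 3 of 39 at 565165, 4 of 24 at 570153 and a single read at the 4 others. With hairpin 2 it was 25 of 919 at 566994, 3 of 71 at 565684 and a single read at the 2 others. Members resting on 1 changed read were thus 2 of 6, 4 of 6 and 2 of 4, beside 40.9%, 62.4% and 58.7% of the lists.

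Among the 4 entries with a score over 100, the changed share was highest at 567926 in control, at 11.3% (interval 7.21 to 16.6). Shares above this were seen at shallow entries, with wide intervals (1 of 7 reads at 565265 and 1 of 3 at 568523, 14.3% and 33.3%) and at 570153 with hairpin 1. At 570153 it was 6.13% in control (4.00 to 8.91) and 16.7% with hairpin 1 (4.74 to 37.4), intervals that overlap. At chrM 9605 in control it was 2.29% (1.34 to 3.65), an interval below that of 570153 in the same list. The background rates fitted to the lists were 1.57%, 1.43% and 1.00% for control, hairpin 1 and hairpin 2. The interval lay wholly above the list's rate at 5 of 16 entries: 567926 and 570153 in control, 565165 and 570153 with hairpin 1, and 566994 with hairpin 2. At the other 11 it held the rate. The same count was not made over all listed sites, and the rates were fitted to these same lists. The 5 of 16 is therefore not read as high or low for the copy. Shallow sites cannot show a low share, because listing takes 1 changed read or more.

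**Figure D3:**
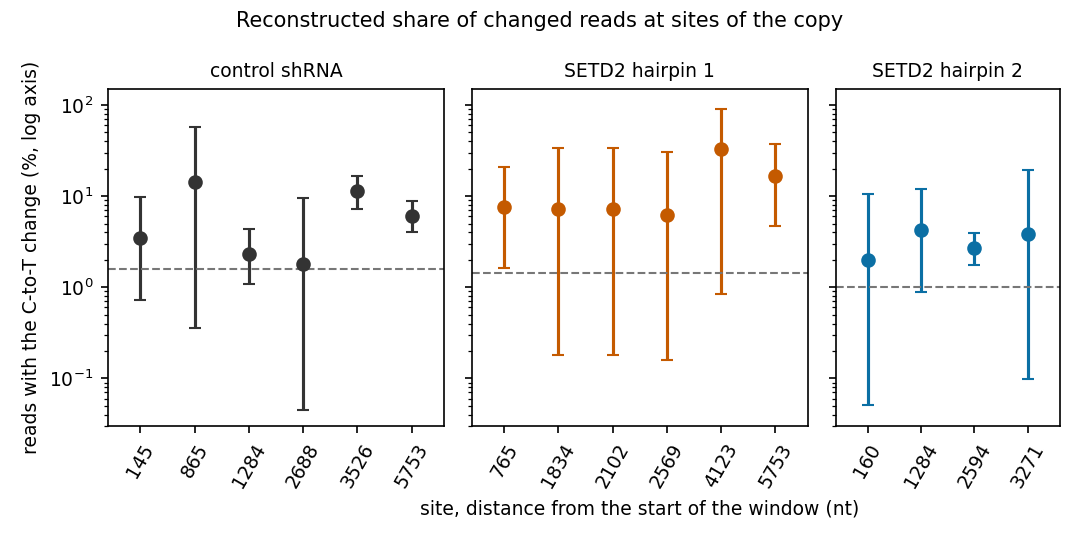
Reconstructed share of changed reads (%, log axis) at each member, by list, labelled by distance in nt from the window start. Bars are 95% exact intervals and the dashed line is the rate fitted to the list. In control the sites at 3526 and 5753 nt (11.3% and 6.13%) lie above the line with their intervals.

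At the 5 matched bases, the changed shares had overlapping intervals whichever copy was listed. At chr1 566994 and chrM 6445 it was 2.48% on chrM in control (2.12 to 2.89), 2.86% on chrM with hairpin 1 (1.64 to 4.61) and 2.72% on chromosome 1 with hairpin 2 (1.77 to 3.99). At chr1 565165 and chrM 4616 it was 7.69% on chromosome 1 with hairpin 1 (1.62 to 20.9) and 7.50% on chrM with hairpin 2 (1.57 to 20.4). At chr1 566234 and chrM 5685 it was 8.26% on chrM in control (4.03 to 14.7) and 7.14% on chromosome 1 with hairpin 1 (0.181 to 33.9). At chr1 565684 and chrM 5135 it was 2.34% and 4.23% on chromosome 1 in control and with hairpin 2, and 1.52% on chrM with hairpin 1 (0.0384 to 8.16). At chr1 564560 and chrM 4011 it was 1.29% and 4.55% on chrM in control and with hairpin 1, and 2.00% on chromosome 1 with hairpin 2 (0.0506 to 10.6). The intervals overlapped at each of the 5 bases, and most are wide, so this does not show that the shares were equal. The pair of 570153 and chrM 9605, not counted among the 5, went otherwise in control. Its share was 6.13% on chromosome 1 and 2.29% on chrM, with intervals that did not overlap.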

How the data were processed

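Site lists of HepG2 cells carrying a control shRNA or an shRNA against SETD2 were used. Per the submitters' processing notes, FastQC 0.11.5, cutadapt 1.13, Bowtie 1.1.2 and build hg19 were used, and the site names carry the tool name rbsSeeker. Its settings were not given in the sources used here, nor was the placement of reads matching several loci. The deposited lists give each site a score set by the authors, whose unit is not stated. Per the labels, the 3 replicates of a group share 1 list, treated as pooled. The lists are labelled miCLIP, whereas the sample titles give m6A-seq and the labels' protocol mentions m6A immunoprecipitation and no crosslinking step. Members are all plus-strand sites of the window, each named by position. The members, lists and comparisons were chosen with earlier results of these data known. Changed reads (m of n) were found by fitting, per list, the rate at which whole numbers m keep the binomial tail probability in the order of the running numbers. The calculation was tested on simulated lists, where single-valued numbers were recovered and bounds at other sites did not always hold. These had 1 background rate, a control list sampled down to part of its sites, and no sites of the highest scores. The full control list and its deepest chrM sites were thus not covered. Whether score and running number mean what was inferred was not tested there. All 3755, 482 and 697 sites could be ordered, with 98.6%, 97.7% and 97.0% single-valued. Sequences are from RefSeq tables of GRCh38.p14, in which 7 of 7 members matched. Alternatives changed the minimum score, strand, merging, matching distance, denominator and rate. Python 3.11.15, numpy 2.4.6, scipy 1.17.1, pandas 2.3.3 and matplotlib 3.10.9 were used.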

Additional observations from a re-analysis of the deposited data

How the results depend on the processing

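Of 116 recomputed values, 99 stayed close to the reported one (counts within 1.5 times, shares and ratios within the 95% interval of counting error), including all 64 of the reconstructed shares. Those 64 could hardly move, as the number was single-valued at each entry and the lowest and highest fitted rates nearly coincided. They are thus no sign of robustness, and the 17 values that moved were all among the others. With chrM left out of the lists, the copy's share of summed score rose to 0.552% in control, 0.649% with hairpin 1 and 2.48% with hairpin 2, by construction of the smaller total. Without the best covered member it was 0.284%, 0.304% and 0.290%. At the exact offset of 560550, 0 members had a chrM partner in any list. Within 10 nt and in the same list, 1 control member had one. Over the chrM sites of any list, a choice made after seeing the data, members with a partner within 1 nt numbered 1, 2 and 3 in control, hairpin 1 and hairpin 2, and 2, 3 and 3 within 10 nt. Counting partner bases, also chosen after seeing the data, raised the control members found again with hairpin 1 from 1 to 2. The score was 17.0-fold lower with hairpin 1 and 5.41-fold lower with hairpin 2 at the single shared member of each, and 10.3-fold and 1.07-fold for summed scores. Without the best covered members, an added choice, hairpin 1 was again 10.3-fold lower. Leaving out the highest shared member gave no value, as only 1 was shared with each hairpin. No paired analysis was possible because each list pools the replicates of its group, so no replicate could be left out either. With 4 to 6 members per list, intervals are wide and shares from scores under 30 reads are imprecise.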
